A study of Mus musculus with 2 samples.

Results

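The 10 genes Hoxa4, Hoxb4, Hoxc4, Hoxd4, Hoxa5, Hoxb5, Hoxc5, Hoxb6, Hoxa7 and Hoxb8 were followed in nuclei of mouse hindbrain neurons that send axons to the lumbar spinal cord. They are 10 of the 23912 genes that the count tables share, and they were taken by name, as a list drawn up with earlier results of these data known. Of the other genes of groups 4 to 8 in the tables, Hoxa6, Hoxb7 and Hoxc6 are not on the list. Nuclei came from TRAP2 mice of 8 to 12 weeks, a line in which the activity-dependent Fos gene drives an inducible Cre, and from tissue between -7.3 and -5.2 mm relative to bregma. A retrograde AAV carrying H2B-GFP, a nuclear fluorescent protein, had been placed in the lumbar cord, and nuclei were sorted after a pain treatment. There were 2 treatments, SNI with brush and hot water bath, with 1 library each, made from hindbrains pooled within the treatment. Virus, sort and age were the same in both, no untreated library was analysed here, and the sources used here do not give the number of animals. Transcripts were counted as unique molecular identifiers (UMIs). Nuclei of 1 library are not replicates, so no p-value is given, and every interval is an exact 95% interval for counting error alone.

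Hox genes encode homeodomain transcription factors and lie in 4 clusters, Hoxa, Hoxb, Hoxc and Hoxd. Along each cluster the genes are switched on from the 3′ end, which holds the low-numbered paralog groups, towards the 5′ end, and the more 5′ a gene lies, the more caudal the front edge of its domain in the embryonic neural tube. The group 4 genes reach into the caudal hindbrain, whereas the higher groups of this list are mainly genes of the most caudal medulla and the spinal cord. Retinoic acid activates the 3′ genes, Cdx factors act on the more 5′ ones, and Polycomb and trithorax proteins keep the off and on states. Hox proteins bind DNA together with Pbx and Meis proteins, and many neurons retain Hox transcription into adult life.

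Promoter windows of 250 bases before the gene start in RefSeq were held for 6 of the 10 genes in the RefSeq table of build GRCm38.p6, which corresponds to mm10. The windows of the 3 group 4 genes matched and of Hoxb8, the most 5′ gene of the list, are shown 5′ to 3′ on the strand of the gene, because the results below run from group 4 to group 8. Capitals mark every match, on either strand, to 7 short motifs. These were the CCAAT box, the TATA box as TATAAA, the retinoid receptor core as AGGTCA, a Cdx core as TTTATNG, a Hox and Pbx core as TGATNNAT, a homeodomain core as TAATTA and an E-box as CACGTG.
Hoxb4: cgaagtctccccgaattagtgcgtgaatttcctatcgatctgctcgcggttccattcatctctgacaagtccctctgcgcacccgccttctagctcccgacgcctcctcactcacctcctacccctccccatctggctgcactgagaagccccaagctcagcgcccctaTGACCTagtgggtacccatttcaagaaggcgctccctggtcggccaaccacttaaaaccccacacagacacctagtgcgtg
Hoxc4: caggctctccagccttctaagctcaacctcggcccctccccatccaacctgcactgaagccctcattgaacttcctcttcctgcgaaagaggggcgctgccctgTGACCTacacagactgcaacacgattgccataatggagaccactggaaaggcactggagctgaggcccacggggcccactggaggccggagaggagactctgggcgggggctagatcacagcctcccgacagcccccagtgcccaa
Hoxd4: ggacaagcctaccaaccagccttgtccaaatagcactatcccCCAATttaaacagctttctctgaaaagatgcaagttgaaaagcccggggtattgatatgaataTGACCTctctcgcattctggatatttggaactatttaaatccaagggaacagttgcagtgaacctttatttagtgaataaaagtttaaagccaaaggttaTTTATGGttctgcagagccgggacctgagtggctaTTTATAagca
Hoxb8: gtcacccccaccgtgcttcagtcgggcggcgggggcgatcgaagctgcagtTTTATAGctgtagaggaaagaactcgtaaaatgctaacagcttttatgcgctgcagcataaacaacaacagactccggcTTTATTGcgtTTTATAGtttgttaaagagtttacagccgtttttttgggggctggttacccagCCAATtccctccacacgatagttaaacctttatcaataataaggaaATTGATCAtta
Their positions are chr11:96318017-96318266 for Hoxb4, chr15:103034145-103034394 for Hoxc4, chr2:74721728-74721977 for Hoxd4 and chr11:96281655-96281904 for Hoxb8, all on the plus strand. The windows of Hoxc4 and Hoxd4 lie within the gene spans given below, which come from another annotation and start farther 5′. They therefore do not precede the starts of those spans. The 3 group 4 windows each held 1 match to AGGTCA, read as TGACCT on the strand of the gene, at -81 to -76 in Hoxb4, -146 to -141 in Hoxc4 and -145 to -140 in Hoxd4. Of all 32851 windows of the table, 14.0% held this motif, and the windows of Hoxa5, Hoxa7 and Hoxb8 did not. TTTATNG stood 3 times in the Hoxb8 window, of which 2 matches overlap TATAAA read on the other strand, and 1 time in the Hoxd4 window, against 9.81% of all windows with at least 1 match. TGATNNAT was seen in the Hoxb8 window and in 7.68% of all windows. CCAAT lay in the Hoxd4, Hoxa5 and Hoxb8 windows and in 33.8% of all windows, and TATAAA, matched in Hoxd4 and Hoxb8, in 12.4%. The homeodomain core TAATTA was in none of the 6 windows, against 4.84% of all windows, and the E-box in none, against 6.02%. The GC content of the windows was 58% for Hoxb4, 62% for Hoxc4, 40.4% for Hoxd4 and 44.4% for Hoxb8, beside a median of 52.4% over all windows. These letter matches describe the windows and say nothing of binding.

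The SNI with brush table held 288 nuclei with a median of 32852 UMIs, and the hot water bath table held 425 nuclei with a median of 36962 UMIs. Mitochondrial genes took 0.514% and 0.148% of the UMIs, Gm42418, a gene model over ribosomal RNA, 0.958% and 0.235%, and 50% and 35.8% of the nuclei held a UMI of a Y-linked gene. The libraries thus differ in each of these measures, and they shared 0 barcodes. In the SNI with brush library 18 nuclei with at least 20 UMIs of liver genes were set aside, as were 2 and 3 called doublets, which left 268 and 422 nuclei. The 8 neuron markers were all detected in Hox-positive and Hox-negative nuclei of both libraries.

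Hox transcripts of groups 4 to 8 were found in most SNI with brush nuclei and in a minority of hot water bath nuclei. At least 1 UMI of the 10 genes was present in 166 of 268 SNI with brush nuclei (61.9%, interval 55.8 to 67.8%) and in 160 of 422 hot water bath nuclei (37.9%, 33.3 to 42.7%). Summed over the 10 genes, 827 UMIs gave 77.3 CPM (UMIs scaled to the library total, 72.1 to 82.8) in the SNI with brush library, and 419 UMIs gave 25.9 CPM (23.5 to 28.5) in the hot water bath library. With every nucleus thinned to 9000 UMIs, which left no nucleus out, the shares were 38.8% and 17.3%. At 20000 UMIs, which 210 SNI with brush and 385 hot water bath nuclei reached, they were 51.0% and 28.6%, and at 1000 UMIs 7.09% and 1.42%. The difference in shares therefore held at equal depth.

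Hox transcripts were unevenly spread over the nuclei. Nuclei with at least 2 UMIs, called Hox-positive below, numbered 110 in the SNI with brush library (41.0%, 35.1 to 47.2%) and 81 in the hot water bath library (19.2%, 15.5 to 23.3%). Nuclei with none, called Hox-negative, numbered 102 and 262, and nuclei with exactly 1 UMI, 56 and 79, were placed in neither class. At least 5 of the 10 genes were seen together in 29 SNI with brush nuclei and in 8 hot water bath nuclei. The tenth of nuclei with most Hox UMIs held 50.1% of them in the SNI with brush library and 59.4% in the hot water bath library, and the highest nucleus held 32 and 15. Free RNA in the droplets sets a floor under such shares. The cluster led by Prdm6 has among its leading genes Crh, which marks a pontine nucleus in front of the group 4 domain, and 4 of its 55 hot water bath nuclei held a UMI (7.27%) at a median depth of 36962, and none of the 9 nuclei of the cluster led by Crhbp did. In other hot water bath clusters with a low Hox level the share ran from 7.14% (led by Adamts12) to 25.8% (led by Tph2). How much of these shares is free RNA was not tested. Of the 18 liver-gene nuclei of the SNI with brush library, 6 held a UMI and 2 would be Hox-positive, at 23.3 CPM and a median depth of 22180.

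**Figure D1:**
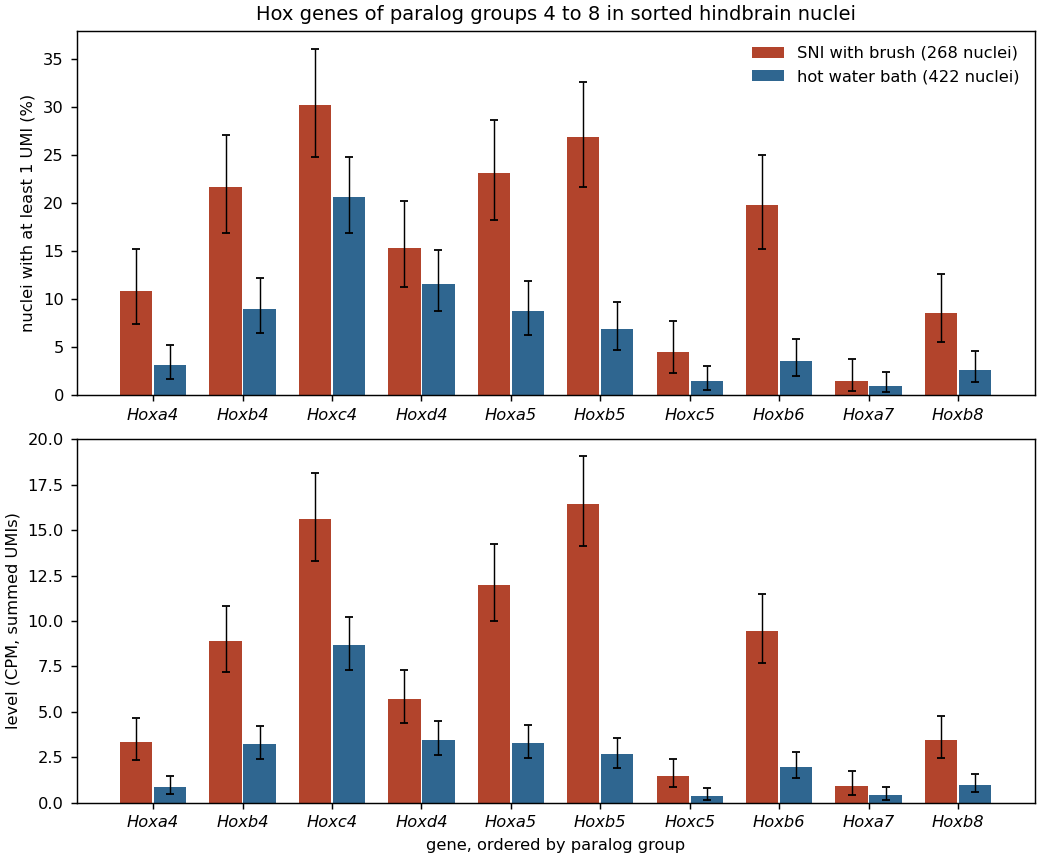
Share of nuclei with at least 1 UMI (top, %) and level of summed counts (bottom, CPM) of the 10 genes in the SNI with brush library (268 nuclei) and the hot water bath library (422 nuclei). Bars are library values and whiskers exact 95% intervals for counting error: every gene stands higher in SNI with brush nuclei, and the intervals of the shares overlap for Hoxc4, Hoxd4, Hoxc5 and Hoxa7.

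Taken as a group, the group 4 genes were the most often detected. Hoxc4 (ENSMUSG00000075394, mm10 chromosome 15, 103018934 to 103036852, plus strand) had UMIs in 30.2% of SNI with brush nuclei (24.8 to 36.1%), at 15.6 CPM, and in 20.6% of hot water bath nuclei (16.9 to 24.8%), at 8.66 CPM. It was the gene of the list with the highest share in both libraries. Hoxb4 (ENSMUSG00000038692, chromosome 11, 96318267 to 96321638, plus strand) was seen in 21.6% of SNI with brush nuclei (16.9 to 27.1%) and in 9.0% of hot water bath nuclei (6.45 to 12.2%). Hoxd4 (ENSMUSG00000101174, chromosome 2, 74711929 to 74729160, plus strand) was seen in 15.3% of SNI with brush nuclei (11.2 to 20.2%) and in 11.6% of hot water bath nuclei (8.71 to 15.1%). The 2 intervals for Hoxd4 overlap. Hoxa4 (ENSMUSG00000000942, chromosome 6, 52189671 to 52191753, minus strand) was the least frequent of the group, in 10.8% of SNI with brush nuclei (7.37 to 15.2%) and in 3.08% of hot water bath nuclei (1.65 to 5.21%). In the annotation, Hoxd4 shares exons with Hoxd3, and Hoxa4 and Hoxa5 lie within the Hoxa3 gene and opposite Hoxaas3, so that counts of these genes are uncertain where reads cannot be told apart.

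Group 5 held a frequent pair, Hoxb5 and Hoxa5, and the rare Hoxc5. Hoxb5 (ENSMUSG00000038700, chromosome 11, plus strand) had UMIs in 26.9% of SNI with brush nuclei (21.7 to 32.6%), at 16.5 CPM, and in 6.87% of hot water bath nuclei (4.65 to 9.72%), at 2.66 CPM. Nuclei that held it carried 2.44 UMIs of it on average in the SNI with brush library and 1.48 in the hot water bath library. Hoxa5 (ENSMUSG00000038253, chromosome 6, 52201754 to 52204587, minus strand), known for its part in the respiratory tract and phrenic motor neurons, was seen in 23.1% of SNI with brush nuclei (18.2 to 28.7%) and in 8.77% of hot water bath nuclei (6.25 to 11.9%). Its highest nucleus held 18 of the 128 UMIs in the SNI with brush library and 4 of the 53 in the hot water bath library. Hoxc5 (ENSMUSG00000022485, chromosome 15, 102967443 to 103017429, plus strand) was rare, in 4.48% of SNI with brush nuclei (2.33 to 7.69%) and in 1.42% of hot water bath nuclei (0.524 to 3.07%). Its annotated gene of 49987 bases overlaps Hoxc6, Hoxc8, Hoxc9 and Hoxc10, and Hoxb5 lies opposite the noncoding Hoxb5os.

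Groups 6 to 8 reached fewer nuclei. Hoxb6 (ENSMUSG00000000690, chromosome 11, 96292476 to 96301569, plus strand) was present in 19.8% of SNI with brush nuclei (15.2 to 25.1%) and in 3.55% of hot water bath nuclei (2.00 to 5.79%). One hot water bath nucleus held 8 of the 32 UMIs there. Hoxb8 (ENSMUSG00000056648, chromosome 11, 96281905 to 96285315, plus strand), known from spinal sensory circuits in mice, was present in 8.58% of SNI with brush nuclei (5.52 to 12.6%) and in 2.61% of hot water bath nuclei (1.31 to 4.62%). Hoxa7 (ENSMUSG00000038236, chromosome 6, 52214491 to 52221854, minus strand) had 10 UMIs in 4 SNI with brush nuclei and 7 UMIs in 4 hot water bath nuclei, and 6 of the 10 came from 1 nucleus. Its shares of 1.49% (0.408 to 3.78%) and 0.948% (0.259 to 2.41%) could not be told apart at this depth.

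Per kilobase of exon, the order of the levels differed between the libraries. In the SNI with brush library Hoxa5 (6.37 CPM per kb), Hoxc4 (6.08), Hoxb5 (5.90) and Hoxb6 (4.81) led, followed by Hoxb4 (3.46), Hoxa4 (2.11), Hoxd4 (1.93), Hoxb8 (1.31), Hoxc5 (0.484) and Hoxa7 (0.325). In the hot water bath library Hoxc4 (3.37 CPM per kb) led, followed by Hoxa5 (1.75), Hoxb4 (1.25), Hoxd4 (1.18), Hoxb6 (1.01), Hoxb5 (0.955), Hoxa4 (0.544), Hoxb8 (0.376), Hoxa7 (0.151) and Hoxc5 (0.120). Of the 9 pairs of neighbours in each order, 8 had overlapping intervals. The exceptions were Hoxb8 and Hoxc5 in the SNI with brush library and Hoxc4 and Hoxa5 in the hot water bath library. A 3′ kit does not read along the whole transcript, so the value per kb is a scale for side-by-side levels and not a molecule count.

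Each of the 10 genes had a higher level in SNI with brush nuclei. With 0.5 UMI added to each sum, the log2 ratios of CPM (SNI with brush to hot water bath) were 1.93 for Hoxa4 (1.03 to 2.96), 1.46 for Hoxb4 (0.96 to 1.98), 0.85 for Hoxc4 (0.52 to 1.18) and 0.72 for Hoxd4 (0.17 to 1.27) in group 4. In group 5 they were 1.86 for Hoxa5 (1.39 to 2.36), 2.62 for Hoxb5 (2.14 to 3.14) and 1.94 for Hoxc5 (0.58 to 3.65). In groups 6 to 8 they were 2.24 for Hoxb6 (1.67 to 2.87), 1.08 for Hoxa7 (-0.43 to 2.74) and 1.78 for Hoxb8 (0.92 to 2.75). All 10 ratios exceeded 1.5-fold, where 30.3% of the 17471 genes with at least 20 UMIs did so and 8.47% lay below by that factor. The median of the 10 was 1.82, beside 0.23 over all genes, and 9 of the 10 had the 20 UMIs. Of genes as long as the members (2083 to 49987 bases), 35.3% exceeded 1.5-fold (median 0.34), and of genes under 4000 bases 54.8% (median 0.69). The part of gene length in the ratios of the members was not tested.

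The difference depended on which nuclei were compared. Among nuclei with a Y-linked UMI, 127 from the SNI with brush library and 151 from the hot water bath library, the 10 genes summed to 57.6 and 35.8 CPM, the median ratio was 0.92 and 6 of the 10 exceeded 1.5-fold, as did 27.9% of all genes with 20 UMIs in these nuclei. There Hoxa5 stood at 0.20, Hoxb4 at 0.27, Hoxb6 at 0.29, Hoxc4 at 0.36 and Hoxb5 at 1.64. With at most 0.5% mitochondrial UMIs per nucleus the median was 1.60 and 9 of the 10 exceeded 1.5-fold, against 27.3% of all genes, and with median-of-ratios size factors, which put the median of all genes at 0.05, it was 1.65 and 9 of 10, against 23.1%. All 10 members were counted, but only 7 had 20 UMIs in nuclei with a Y-linked UMI and 8 under the mitochondrial limit. Summed markers of liver, 266 CPM in Hox-positive and 270 CPM in Hox-negative SNI with brush nuclei, stood at 18.5 and 20.8 CPM in the hot water bath library, and those of choroid plexus at 225 and 225 against 10.0 and 10.5 CPM. Both marker lists contain Ttr, so these sums overlap. Their part in the difference between the libraries was not tested.

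The ratio was also above 1.5-fold for most members in glutamatergic and in inhibitory nuclei, but not in nuclei of mixed transmitter marking. A nucleus was called glutamatergic or inhibitory where at least 75% of 3 or more UMIs of transmitter genes were of that kind. In glutamatergic nuclei, 122 in the SNI with brush library and 252 in the hot water bath library, the genes summed to 69.8 and 18.5 CPM, and 10 of 10 ratios exceeded 1.5-fold with a median of 2.13, where 26.8% of all genes did so (median 0.18). In inhibitory nuclei, 105 and 84, they summed to 94.3 and 37.5 CPM, and 9 of 10 exceeded 1.5-fold with a median of 1.25, where 34.4% of all genes did so (median 0.29). Hoxa7 was the exception, with 0 UMIs in inhibitory SNI with brush nuclei and 4 in inhibitory hot water bath nuclei. Mixed nuclei had at least 3 transmitter UMIs with neither kind at 75%. In the 23 and 33 mixed nuclei the sums were 67.7 and 70.5 CPM. There 3 of 10 ratios exceeded 1.5-fold with a median of -0.07, where 24.5% of all genes did so (median 0.15).

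**Figure D2:**
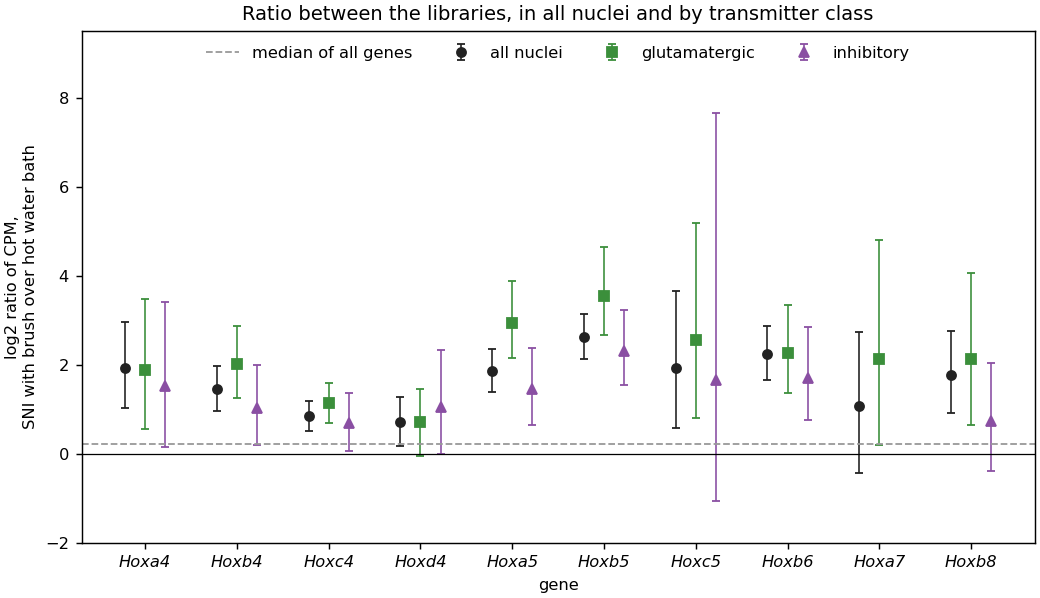
Log2 ratio of CPM, SNI with brush to hot water bath, for each gene in all nuclei (circles), glutamatergic nuclei (squares) and inhibitory nuclei (triangles), with exact 95% intervals. The dashed line is the median of all genes (0.23); Hoxb5 has the highest ratio in all nuclei (2.62) and Hoxd4 the lowest (0.72), and Hoxa7 is not drawn for inhibitory nuclei, where 1 library had no UMI.

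Among the listed genes, detection was lower towards the 5′ end of the clusters, but not evenly. In the Hoxb cluster the shares for Hoxb4, Hoxb5, Hoxb6 and Hoxb8 were 21.6, 26.9, 19.8 and 8.58% in the SNI with brush library and 9.0, 6.87, 3.55 and 2.61% in the hot water bath library. In the Hoxa cluster Hoxa5 was above Hoxa4 in both libraries and Hoxa7 far below. In the Hoxc cluster Hoxc4 was well above Hoxc5 in both. Genes left off the list break this order. Hoxb7, in 7.09% of SNI with brush and 1.90% of hot water bath nuclei, was below Hoxb8 in both libraries. Hoxa6, in 1.12 and 0%, was below Hoxa7. Hoxc6, in 4.85 and 0.474%, was above Hoxc5 (4.48%) in the SNI with brush library and below it (1.42%) in the hot water bath library. By group, any group 4 gene of the list was seen in 48.1% of SNI with brush nuclei (42.0 to 54.3%) and 31.5% of hot water bath nuclei (27.1 to 36.2%), any group 5 gene of the list in 37.7% (31.9 to 43.8%) and 13.7% (10.6 to 17.4%), and any of Hoxb6, Hoxa7 and Hoxb8 in 22% (17.2 to 27.5%) and 5.92% (3.87 to 8.62%). The groups hold 4, 3 and 3 genes of unequal length, so the order is a description.

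Nuclei with a caudal Hox gene mostly held a more rostral one too. Of the 59 SNI with brush nuclei with a UMI of Hoxb6, Hoxa7 or Hoxb8, called groups 6 to 8 here, 52 also had a gene of group 4 or 5 (88.1%, 77.1 to 95.1%), against 51.2% of those without (44.2 to 58.2%). Of the 25 such hot water bath nuclei, 17 did (68%, 46.5 to 85.1%), against 34.0% of those without (29.4 to 38.9%). Thinned to 9000 UMIs, the shares were 69.2% (18 of 26) against 32.2% in the SNI with brush library and 40% (4 of 10) against 15.3% in the hot water bath library. In the thinned hot water bath nuclei the 2 intervals overlap.

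Neighbours of the Hoxb cluster were also detected together, in either direction. Hoxb4 was present in 51.4% of the 72 SNI with brush nuclei with Hoxb5, against 10.7% of those without it. In the 29 hot water bath nuclei with Hoxb5 the share was 44.8%, against 6.36%. Conversely, 63.8% of SNI with brush and 34.2% of hot water bath nuclei with Hoxb4 held Hoxb5. These pair shares were not thinned, and no hot water bath share given here reached a majority. Of the 53 SNI with brush nuclei with Hoxb6, 75.5% held Hoxb5 (61.7 to 86.2%), against 14.9% of those without it (10.4 to 20.4%), and of the 15 hot water bath nuclei with Hoxb6, 46.7% did (21.3 to 73.4%), against 5.41% of those without it (3.42 to 8.07%). Hoxb6 was present in 17 of the 23 SNI with brush nuclei with Hoxb8 (73.9%, 51.6 to 89.8%) and in 14.7% of those without it (10.5 to 19.8%). It was present in 2 of the 11 hot water bath nuclei with Hoxb8 (18.2%, 2.28 to 51.8%), against 3.16% of those without it (1.69 to 5.35%), and these 2 intervals overlap. Across nuclei, the correlation of normalized counts had a median of 0.37 over the 10 pairs of genes of 1 cluster in the SNI with brush library, 0.14 over the 9 pairs of 1 paralog group and 0.11 over the 26 other pairs. These medians were 0.11, 0.20 and 0.09 in the hot water bath library. The genes share the depth of each nucleus, and neighbouring genes can share reads, so these values are descriptions of sparse counts.

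**Figure D3:**
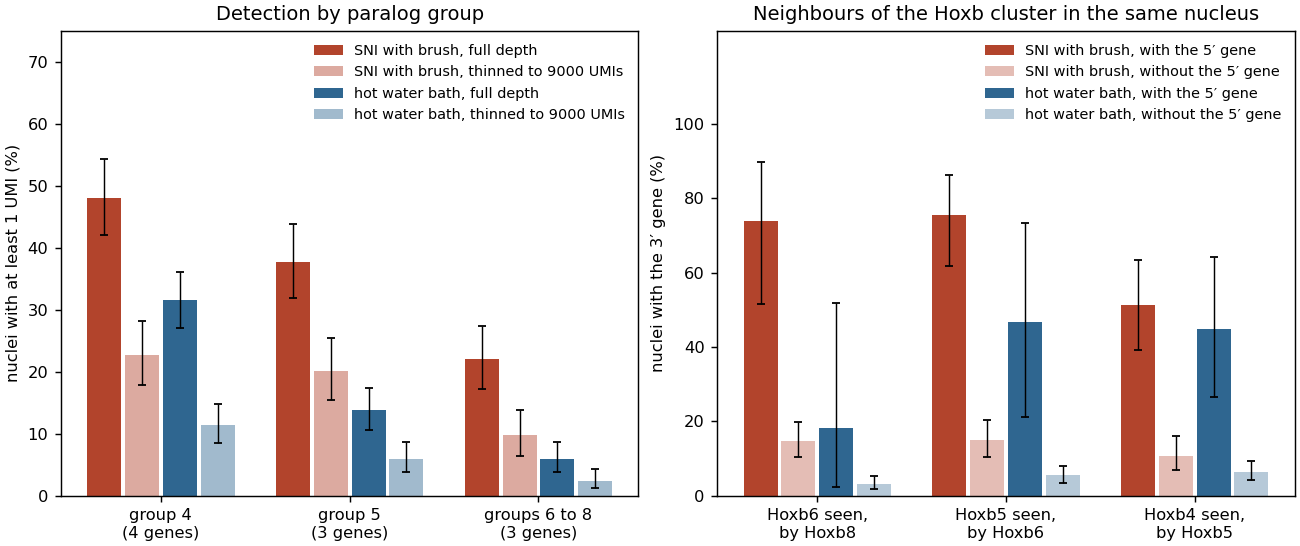
Left: share of nuclei (%) with at least 1 UMI of paralog group 4, 5 or 6 to 8, at full depth and thinned to 9000 UMIs. Right: share of nuclei (%) with the 3′ gene of a Hoxb pair among nuclei with and without its 5′ neighbour. Bars are libraries, whiskers exact 95% intervals: the shares fall from group 4 to groups 6 to 8 in both libraries, and each 3′ gene is more frequent beside its 5′ neighbour, with overlapping intervals for Hoxb6 beside Hoxb8 in the hot water bath library.

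Clusters of nuclei, built without any Hox gene and named here by their leading genes, differed widely in Hox level. The libraries filled the clusters unequally and differed in Hox level, so the order is given within each library, for clusters with at least 10 nuclei there. Among SNI with brush nuclei the cluster led by Slc6a5, the neuronal glycine transporter, and Pax8 had 104 CPM of the 10 genes (94.0 to 114), with 44 of 81 nuclei Hox-positive. The clusters led by Cfap299 and Sparc (94.4 CPM, 67.7 to 128), Slc17a7 (79.0 CPM, 61.3 to 100.1) and Sst (72.0 CPM, 62.6 to 82.3) had overlapping intervals, and the Cyp26b1 cluster had 9.93 CPM (3.64 to 21.6) in 10 nuclei.

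In the hot water bath library the Cfap299 cluster had 158 CPM (122 to 201) in 13 nuclei. The Gcg cluster had 98.3 CPM (79.7 to 120), with 24 of 28 nuclei Hox-positive. Then came the clusters led by Antxrl and Glp1r (54.9 CPM), St18 (49.3 CPM), Sst (37.7 CPM), Slc6a5 (37.0 CPM), Gna14 (32.3 CPM), Myom3 (28.9 CPM) and Tac1 (14.6 CPM). At the other end stood the clusters led by Ntsr1 (5.90 CPM), the serotonergic neuron-like cluster led by Tph2 (5.86 CPM), and those led by Cyp26b1 (4.18 CPM), Creb5 (3.79 CPM), Pcsk5 (2.89 CPM), Prdm6 (2.43 CPM) and Adamts12 (1.95 CPM), each from at most 8 UMIs. Apart from the Cyp26b1 cluster, these low clusters had fewer than 10 SNI with brush nuclei each, so their level in that library is not ranked.

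The clusters also differed in which Hox genes they held. The clusters led by Gna14, Myom3 and Tac1 had no UMI of Hoxb6, Hoxa7 or Hoxb8 in their 12, 28 and 46 nuclei of both libraries, and Hoxc4 and Hoxd4 made up most of their Hox UMIs. Over both libraries, the Gcg cluster, with 28 of its 30 nuclei from the hot water bath library, held Hoxc4 at 34.7 CPM, Hoxa5 at 22.5 CPM and Hoxb8 at 0.937 CPM. Of the Hoxa7 UMIs, 10 lay in the Cfap299 cluster and 6 in the Sst cluster. Where a cluster held nuclei of both libraries, the level in SNI with brush nuclei was not always higher. Of clusters with at least 10 nuclei in each library, it was 104 against 37.0 CPM in the Slc6a5 cluster and 72.0 against 37.7 CPM in the Sst cluster. It was 9.93 against 4.18 CPM in the Cyp26b1 cluster, but 94.4 (67.7 to 128) against 158 CPM (122 to 201) in the Cfap299 cluster. In these last 2 clusters the intervals overlap. Smaller groups gave 79.0 against 47.8 CPM for Slc17a7 (7 hot water bath nuclei) and 34.2 against 14.6 CPM for Tac1 (9 SNI with brush nuclei). The Myom3 cluster had 26.5 CPM (7.22 to 67.9, from 4 UMIs in 3 nuclei) against 28.9 CPM.

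**Figure D4:**
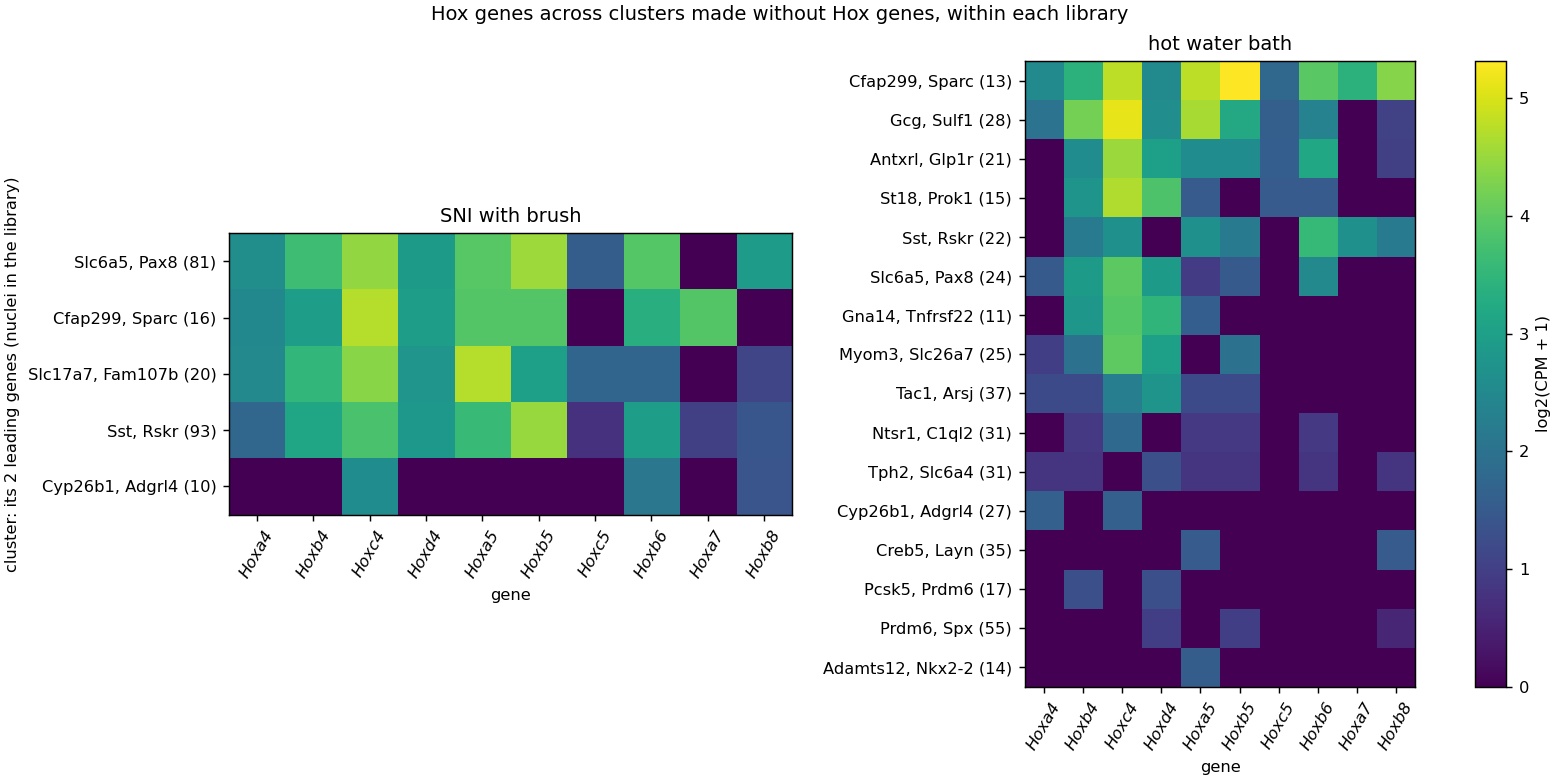
Level of each gene, as log2(CPM + 1) of summed counts, in clusters with at least 10 nuclei in the SNI with brush library (left) and in the hot water bath library (right). Rows carry 2 leading genes and the number of nuclei in that library, and run from the highest to the lowest sum of the 10 genes there: Hoxc4 is found in most of the upper rows, and the lower 7 rows of the hot water bath library hold little of any.

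Hox-positive nuclei included excitatory and inhibitory neurons. In the SNI with brush library 45.5% of Hox-positive nuclei were glutamatergic (35.9 to 55.2%), against 40.2% of Hox-negative nuclei (30.6 to 50.4%), and 45.5% were inhibitory (35.9 to 55.2%), against 41.2% (31.5 to 51.4%). In the hot water bath library 51.9% of Hox-positive nuclei were glutamatergic (40.5 to 63.1%), against 62.2% of Hox-negative nuclei (56.0 to 68.1%), and 24.7% were inhibitory (15.8 to 35.5%), against 19.1% (14.5 to 24.4%). All 4 pairs of intervals overlap. Mixed nuclei, as defined above, made up 17.3% of Hox-positive hot water bath nuclei (9.78 to 27.3%) and 5.34% of Hox-negative ones (2.95 to 8.80%).

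The shares in the hot water bath library rested on a pair of clusters. The Gcg cluster held 13 of the 20 inhibitory and 11 of the 14 mixed Hox-positive nuclei, and without it 73.7% of Hox-positive nuclei were glutamatergic and 12.3% inhibitory. The serotonergic neuron-like cluster held 21 of the 50 inhibitory Hox-negative nuclei, and without it the inhibitory share of Hox-negative nuclei was 12.1% (8.28 to 17.0%). In the SNI with brush library the shares without the serotonergic neuron-like cluster were 45.9% for Hox-positive and 40% for Hox-negative nuclei.

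Among single genes, Hoxb5, Hoxb6 and Hoxb8 had higher levels in inhibitory than in glutamatergic nuclei of both libraries, with intervals above 0. The log2 ratio of inhibitory over glutamatergic nuclei for Hoxb5 was 0.86 (0.40 to 1.33) in the SNI with brush library and 2.09 (0.89 to 3.37) in the hot water bath library. For Hoxb6 it was 0.85 (0.18 to 1.53) and 1.43 (0.12 to 2.69), and for Hoxb8 1.20 (0.14 to 2.35) and 2.59 (0.98 to 4.56). Hoxb8 had 5.36 CPM in inhibitory and 2.30 CPM in glutamatergic SNI with brush nuclei, and 3.12 and 0.494 CPM in hot water bath nuclei, there from 10 and 5 UMIs. Of those 10 UMIs, 6 came from 1 nucleus, the only hot water bath nucleus with 2 or more Hoxb8 UMIs. The 13 hot water bath nuclei of the Cfap299 cluster held 8 of the 16 Hoxb8 and 16 of the 43 Hoxb5 UMIs of that library. Hoxb4 stood at 0.36 (-0.29 to 1.01) and 1.35 (0.29 to 2.36), and Hoxa5 at 0.26 (-0.30 to 0.80) and 1.75 (0.64 to 2.87), above 0 in the hot water bath library. Hoxa4 stood at 0.85 (-0.21 to 1.95) and 1.21 (-0.82 to 3.05), and Hoxc5, from few UMIs, at -0.47 and 0.44, with intervals that include 0. Hoxc4 stood at -0.04 (-0.53 to 0.44) and 0.41 (-0.25 to 1.00), and Hoxd4 at 0.34 (-0.49 to 1.15) and -0.01 (-1.25 to 0.99). Hoxa7 had 0 UMIs in inhibitory and 8 in glutamatergic SNI with brush nuclei, and 4 and 3 in hot water bath nuclei.

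Glycinergic marking was also set beside the most caudal group of the list seen in a nucleus. With groups 6 to 8, group 5, group 4 or no Hox UMI, Slc6a5 had 80.0, 69.7, 94.6 and 80.6 CPM in SNI with brush nuclei. In hot water bath nuclei it had 38.7 (26.8 to 54.1), 19.0 (13.4 to 26.2), 6.35 (3.98 to 9.62) and 9.22 CPM (7.42 to 11.3). The share of inhibitory nuclei in the same hot water bath classes was 40%, 28.3%, 12.4% and 19.1%. The classes hold 25, 46, 89 and 262 nuclei, and 59.5% of the Slc6a5 UMIs of the group 5 class came from 1 nucleus. With at most 0.5% mitochondrial UMIs the groups 6 to 8 class had 13.9 CPM, below the 19.3 CPM of group 5, and 80% of its Slc6a5 UMIs came from 1 nucleus. The 2 libraries were not compared by a test in this.

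Serotonergic genes had low ratios in Hox-positive nuclei of both libraries. Tph2, which makes serotonin, had 3.05 CPM in Hox-positive and 55.4 CPM in Hox-negative SNI with brush nuclei, a log2 ratio of -4.14 (-5.05 to -3.43). It had 1.56 and 146 CPM in hot water bath nuclei, a log2 ratio of -6.41 (-8.17 to -5.32). The hot water bath ratio of Tph2 kept its direction but was much smaller in size with Hox-positive at 1 UMI or set after thinning. Those values are given in the last section. Wherever Hox-positive was set after thinning to 9000 UMIs, Hox-negative was too, and so included nuclei with Hox UMIs at full depth. Nuclei with a Hox UMI numbered 104 and 73 after thinning (SNI with brush, then hot water bath), against 166 and 160 before. The serotonin transporter Slc6a4 stood at -3.31 (-4.09 to -2.66) in the SNI with brush library, where 95% of its UMIs in Hox-positive nuclei came from 1 nucleus. In the hot water bath library it had 0 UMIs in Hox-positive and 267 in Hox-negative nuclei, at least 28.8-fold lower with 3 counts as the limit of 0. Ddc, which makes serotonin and dopamine from their precursors, stood at -2.66 and -3.52, and the vesicular monoamine transporter Slc18a2 at -1.34 and -3.02, the second of which was -0.20 (-0.45 to 0.04) when Hox-positive was set after thinning to 9000 UMIs. The 6 serotonergic markers summed to 27.9 CPM in Hox-positive and 138 CPM in Hox-negative SNI with brush nuclei, and to 12.2 and 213 CPM in hot water bath nuclei, with 6, 5, 4 and 6 of the 6 detected in these classes.

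In SNI with brush nuclei this difference rested on few nuclei. Among those with a Y-linked UMI, Tph2 was higher in Hox-positive nuclei, at 2.64 (0.38 to 8.59), as were Slc6a4, at 2.73 (0.98 to 6.16), and by smaller ratios Ddc, at 0.81, and Slc18a2, at 0.24. There were 4 SNI with brush nuclei in the serotonergic neuron-like cluster, against 31 hot water bath nuclei. Tph2 kept its direction in hot water bath nuclei with a Y-linked UMI, at -5.01. The noradrenergic genes were scarce: Dbh had 4 and 5 UMIs and Slc6a2 had 6 and 1 UMIs in Hox-positive and Hox-negative SNI with brush nuclei, and 0 and 13, and 0 and 6, in hot water bath nuclei. Th had 9 and 10 UMIs in the SNI with brush library, and 0 and 17 in the hot water bath library, at least 1.84-fold lower.

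Of the cholinergic genes, Chat, which makes acetylcholine, stood at -2.28 (-3.58 to -1.26) in SNI with brush nuclei, and in hot water bath nuclei at -1.83 (-3.63 to -0.66), which was -0.96 (-2.56 to 0.14) when Hox-positive was set after thinning to 9000 UMIs. The SNI with brush value turned to 0.85 (-1.16 to 3.56) in nuclei with at most 0.5% mitochondrial UMIs. The choline transporter Slc5a7 stood at -2.62 and -0.26, and its interval in the hot water bath library, -1.26 to 0.58, includes 0. Slc18a3, the vesicular acetylcholine transporter, had 6 and 12 UMIs in Hox-positive and Hox-negative SNI with brush nuclei and none in either class of the hot water bath library.

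Of the glutamate transporters, Slc17a7 had 20.6 CPM in Hox-positive and 8.75 CPM in Hox-negative SNI with brush nuclei, a log2 ratio of 1.22 (0.65 to 1.85), and 10.0 and 0.709 CPM in hot water bath nuclei, a log2 ratio of 3.74 (2.61 to 5.24). When Hox-positive was set after thinning to 9000 UMIs, the SNI with brush ratio was 0.05 (-0.42 to 0.50) and the hot water bath ratio 2.51 (1.75 to 3.28). Among hot water bath nuclei Slc17a7 was seen in 4 of 81 Hox-positive and 3 of 262 Hox-negative nuclei. Slc17a6, the main vesicular transporter of hindbrain glutamatergic neurons, stood at -0.05 (-0.23 to 0.13) and 0.12 (-0.04 to 0.29), and Slc17a8 at -0.38 and -1.01, with intervals that include 0. Among inhibitory genes, Slc6a5 stood at 0.16 (-0.05 to 0.38) and 0.62 (0.06 to 1.14), where the second value turned to -0.32 (-1.10 to 0.36) with at most 0.5% mitochondrial UMIs. Slc32a1, the vesicular inhibitory transporter, stood at 0.05 and 0.17, with intervals that include 0. The GABA-synthesizing enzyme Gad1 stood at -0.04 and -0.86 (-1.42 to -0.37), the second of which turned to 0.18 (-0.29 to 0.61) when Hox-positive was set after thinning, and Gad2 at -0.24 (-0.45 to -0.03) and 0.12 (-0.10 to 0.32), the last of which was -1.12 (-1.48 to -0.79) without the Gcg cluster. Of the transmitter list, 1 of 15 genes in the SNI with brush library and 2 of 14 in the hot water bath library exceeded 1.5-fold in Hox-positive nuclei, and 7 and 8 lay below by that factor, with medians of -0.53 and -0.94. Over all genes with 20 UMIs the medians were -0.02 and -0.0016, and 7.06% were higher and 7.67% lower in the SNI with brush library (15330 genes), and 8.25% and 10.3% in the hot water bath library (15534 genes).

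Depth and quality differed between the classes. Hox-positive nuclei had a median of 35447 UMIs and Hox-negative nuclei 30712 in the SNI with brush library, and 38624 and 36225 in the hot water bath library. Y-linked UMIs were found in 41.8% of Hox-positive and 46.1% of Hox-negative SNI with brush nuclei, and in 54.3% and 32.4% of hot water bath nuclei. The median mitochondrial share was 0.341% and 0.256% in the SNI with brush library, and 0.081% and 0.066% in the hot water bath library. Oligodendrocyte markers summed to 198 CPM in Hox-positive and 173 CPM in Hox-negative SNI with brush nuclei, and to 80.1 and 77.6 CPM in hot water bath nuclei. Astrocyte markers summed to 60.4 and 45.1 CPM, and to 26.0 and 17.9 CPM. Microglial markers summed to 70.6 and 84.9 CPM, and to 59.4 and 76.7 CPM. The part of these measures in the ratios was not tested.

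Gcg, the gene of the glucagon-like peptides made in the caudal medulla, was the peptide gene with the highest ratio. It had 1005 UMIs in Hox-positive hot water bath nuclei (314 CPM, 25 of 81 nuclei) and 22 UMIs in Hox-negative ones (2.23 CPM, 6 of 262 nuclei), a log2 ratio of 7.11 (6.53 to 7.82). In the SNI with brush library 77 UMIs lay in 2 Hox-positive nuclei and none in Hox-negative nuclei, at least 19.7-fold higher. Without the Gcg cluster the hot water bath ratio was 0.20 (-5.81 to 2.92). Cck, which encodes cholecystokinin, stood at 2.35 (1.92 to 2.84) in the SNI with brush library and 0.85 (0.46 to 1.23) in the hot water bath library, and Nppc, which encodes C-type natriuretic peptide, at 1.58 (1.04 to 2.19) and 1.52 (0.31 to 2.72). Nppc was seen in 38.2% of Hox-positive and 23.5% of Hox-negative SNI with brush nuclei, and in 12.3% and 4.96% of hot water bath nuclei. Among nuclei with a Y-linked UMI, Nppc stood at 0.08 (-0.92 to 1.13) in the SNI with brush library and 0.64 (-1.73 to 2.82) in the hot water bath library, and with at most 0.5% mitochondrial UMIs at 0.60 (-0.17 to 1.44) and 0.86 (-0.75 to 2.25). Cck stood at 0.54 (-0.02 to 1.08) in hot water bath nuclei with a Y-linked UMI.

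Other peptide genes were higher in 1 library or rested on single nuclei. Igf1 stood at 0.23 (-0.22 to 0.69) in the SNI with brush library and 2.49 (1.75 to 3.28) in the hot water bath library, where it was 0.93 (-0.49 to 2.35) in nuclei with a Y-linked UMI. Gal stood at 2.22 and 0.38, with 72.5% of the UMIs of Hox-positive SNI with brush nuclei in 1 nucleus. Tac2 stood at 0.12 and 2.07, with 88.3% of the UMIs of Hox-positive hot water bath nuclei in 1 nucleus, and at -4.28 in hot water bath nuclei with a Y-linked UMI. Vip had 0 and 39 UMIs in Hox-positive and Hox-negative SNI with brush nuclei, at least 16.9-fold lower, and stood at 2.06 (1.42 to 2.71) in the hot water bath library. The 39 UMIs lay in 3 nuclei, and the hot water bath value was -3.59 when Hox-positive was set after thinning to 9000 UMIs.

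The peptide genes named for the smallest ratios included Crh, the stress peptide of the pontine group, at -1.62 (-2.21 to -1.06) in the SNI with brush library and -2.11 (-3.02 to -1.40) in the hot water bath library, Bdnf at -0.95 (-1.30 to -0.61) and -0.38 (-0.64 to -0.14), and the granin Scg2 at -0.31 (-0.47 to -0.15) and -0.39 (-0.53 to -0.25). Crh turned to 1.77 (0.63 to 3.27) in SNI with brush nuclei with a Y-linked UMI. Bdnf stood at -0.02 (-0.29 to 0.23) in hot water bath nuclei without the Gcg cluster. Neither ratio of Scg2 reached 1.5-fold, and when Hox-positive was set after thinning they were -0.07 (-0.23 to 0.08) and 0.01 (-0.12 to 0.15). Pnoc, the nociceptin gene, stood at -1.29 (-1.92 to -0.70) and -0.63 (-1.91 to 0.36), and Vgf at -1.19 (-1.47 to -0.92) and 0.40 (0.16 to 0.62). Pnoc in the SNI with brush library stood at -0.30 (-1.14 to 0.53) with at most 0.5% mitochondrial UMIs, at -0.68 (-1.73 to 0.31) in nuclei with a Y-linked UMI and at -0.39 (-1.02 to 0.20) when Hox-positive was set after thinning. The hot water bath value of Vgf was 0.17 (-0.12 to 0.44) without the Gcg cluster. Of the 31 peptide genes in the tables, 24 and 23 had 20 UMIs, of which 10 in the SNI with brush library and 9 in the hot water bath library exceeded 1.5-fold in Hox-positive nuclei and 9 and 4 lay below by that factor, with medians of 0.25 and 0.33. Beside these counts, 7.06 and 8.25% of all genes with 20 UMIs were higher and 7.67 and 10.3% lower.

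**Figure D5:**
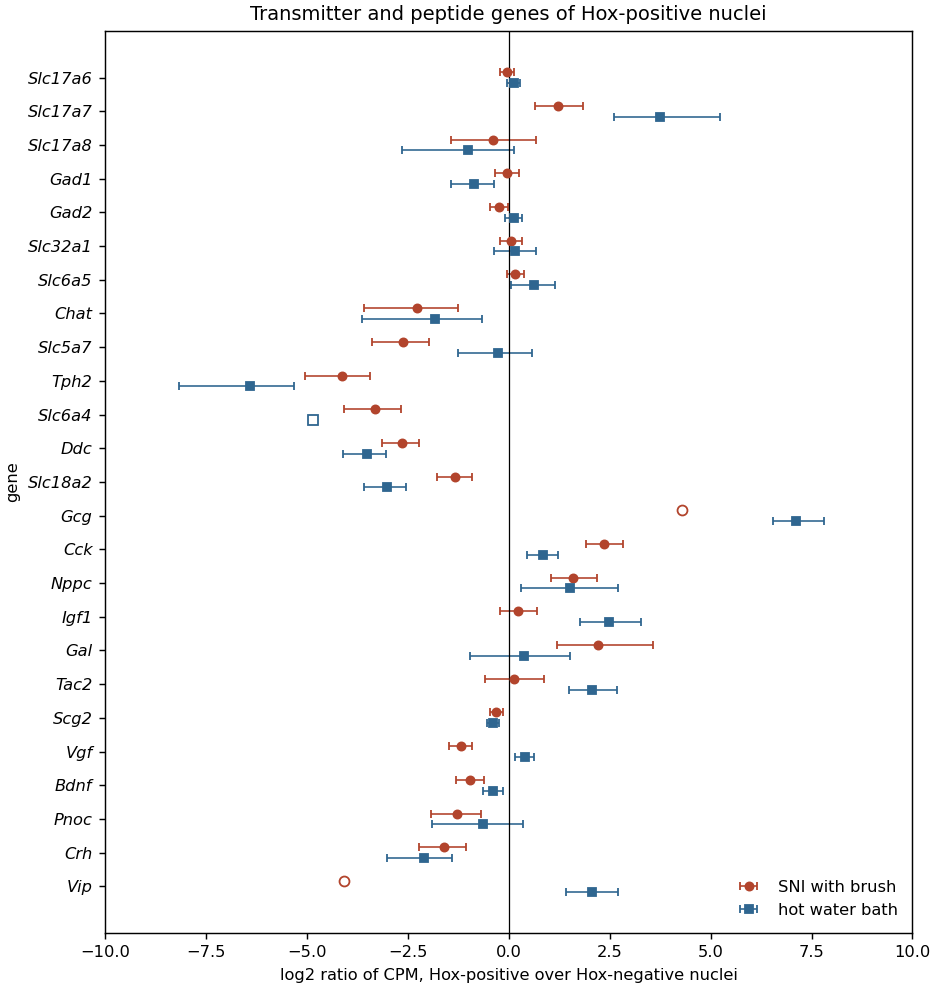
Log2 ratio of CPM, Hox-positive over Hox-negative nuclei, for transmitter genes with at least 20 UMIs in both libraries and the 12 named peptide genes (rows), in SNI with brush (circles) and hot water bath nuclei (squares). Whiskers are exact 95% intervals, and open symbols are bounds where 1 class had no UMI, such as Slc6a4 in hot water bath nuclei (at least 28.8-fold lower): Tph2, Slc6a4, Ddc and Slc18a2 lie to the left in both libraries, and Gcg, Cck, Nppc and Slc17a7 to the right.

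Across all genes, Kcnh8, a voltage-gated potassium channel of the Elk family, had the highest ratio in the library where it was lower. It had 71.6 CPM in Hox-positive and 11.9 CPM in Hox-negative SNI with brush nuclei, a log2 ratio of 2.57 (2.13 to 3.07), and 155 and 6.28 CPM in hot water bath nuclei, a log2 ratio of 4.62 (4.25 to 5.03). Without the Gcg cluster the hot water bath ratio was 2.33 (1.74 to 2.93). When Hox-positive was set after thinning to 9000 UMIs, the ratios were 0.99 (0.72 to 1.27) and 2.94 (2.70 to 3.18). The 9 genes that followed were Sulf1, a sulfatase of heparan sulfate (1.48 in the SNI with brush library and 4.58 in the hot water bath library), the calcium channel adaptor Stac (1.47 and 2.59), the laminin chain Lama1 (1.09 and 2.38), the growth factor Vegfc (1.06 and 1.53), the oxidase Nox4 (0.97 and 0.91), the flippase Atp10a (0.90 and 1.13), Fam163a (0.85 and 1.86), Cck, and Arpp21, a cAMP-regulated phosphoprotein (0.84 and 1.04). Sulf1 stood at -0.32 (-2.91 to 1.27), Stac at 0.70 and Vegfc at 0.43 (-0.54 to 1.26) in hot water bath nuclei without the Gcg cluster. Nox4 turned to -0.43 in the SNI with brush library with liver-gene nuclei included, and to -0.10 in the hot water bath library when Hox-positive was set after thinning, as Fam163a did in the SNI with brush library (-0.32). After thinning, the intervals of Sulf1 (0.51), Vegfc (0.43) and Atp10a (0.27) in the SNI with brush library also included 0. Among nuclei with a Y-linked UMI, those of Lama1 (0.49) and Vegfc (0.64) in the SNI with brush library and of Nox4 (0.03), Atp10a (0.31) and Fam163a (0.47) in the hot water bath library did so.

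The 10 lowest were Pmfbp1 (-1.52 in the SNI with brush library and -2.01 in the hot water bath library), the collagen Col8a1 (-1.35 and -1.42), Pappa2, a protease of insulin-like growth factor binding proteins (-1.31 and -1.32), the carboxypeptidase Cpa6 (-1.16 and -2.35), the actin-binding Palld (-1.13 and -2.12), D5Ertd615e (-1.04 and -1.06), the Notch-related Dlk1 (-1.0 and -3.25), the transcription factor Creb5 (-0.93 and -1.32), Fgd5, an exchange factor for Cdc42 (-0.89 and -2.16), and Gsg1l, an auxiliary subunit of AMPA receptors (-0.85 and -1.04). Dlk1 was seen in 13.6% of Hox-positive and 52.7% of Hox-negative hot water bath nuclei, and in 16.4% and 20.6% of SNI with brush nuclei. In SNI with brush nuclei with a Y-linked UMI, Dlk1 stood at 0.01 (-0.53 to 0.55) and D5Ertd615e at 0.68 (-0.16 to 1.60). When Hox-positive was set after thinning, Pappa2 stood at 0.05 (-0.46 to 0.53) in the SNI with brush library and -0.28 (-0.89 to 0.25) in the hot water bath library. The intervals of Creb5 (-0.40) and Gsg1l (-0.28) in the SNI with brush library also included 0 then, as did that of Creb5 (-0.66) in hot water bath nuclei with a Y-linked UMI.

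By correlation across nuclei with the sum of the 10 genes, the most alike of 9144 genes outside the Hox clusters was again Kcnh8 (r = 0.33 over 268 SNI with brush nuclei and 0.40 over 422 hot water bath nuclei). It was followed by the zinc finger factors Bcl11a (0.28 and 0.37) and Tshz2 (0.27 and 0.30) and by genes with lower values, such as Ndufb10 (0.22 and 0.22), the broadly expressed Calm2 (0.27 and 0.21) and Ubb (0.25 and 0.20), and Camk2n1 (0.18 and 0.18). Within the clusters, Hoxb3 had 0.51 and 0.47 and Hoxa3 0.42 and 0.42. Nuclei share their depth and library, so these values carry no p.

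Other genes of the Hox system were set beside the 10. Of 7 rostral Hox genes of groups 1 to 3, 5 had 20 UMIs and all 5 were at least 1.5-fold higher in Hox-positive nuclei of both libraries, with medians of 1.73 and 2.52. Among all genes with 20 UMIs, 7.06% in the SNI with brush library and 8.25% in the hot water bath library were so. Hoxb3 stood at 2.31 (1.78 to 2.91) in the SNI with brush library and 2.52 (2.03 to 3.04) in the hot water bath library, and Hoxb2 at 0.85 (0.25 to 1.49) and 1.10 (0.19 to 1.96). Hoxa3 and Hoxd3 overlap members, so part of their 2.92 and 2.70, and 0.80 and 1.22, may come from shared reads. Hoxb7 and Hoxc6, the second of which overlaps Hoxc5, had 24 and 3 UMIs, and 19 and 2 UMIs, in Hox-positive and Hox-negative SNI with brush nuclei. Of 6 noncoding RNAs of the clusters, 4 of 5 in the SNI with brush library and 3 of 4 in the hot water bath library exceeded 1.5-fold. The antisense Hoxb5os had 23 and 1 UMIs in the SNI with brush library and 11 and 0 in the hot water bath library. Hotairm1, at the 3′ end of the Hoxa cluster, stood at 1.0 (0.47 to 1.57) and 0.37 (-0.23 to 0.93).

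Cofactors moved in both directions, with medians of 0.13 in SNI with brush and -0.01 in hot water bath nuclei. Of 9 measured, Pknox2 was higher in both libraries (0.80, 0.54 to 1.06, and 1.30, 1.11 to 1.49) and Meis2 lower (-0.89, -0.99 to -0.79, and -0.69, -0.77 to -0.61). Meis1 stood at -0.01 (-0.17 to 0.16) in the SNI with brush library and 0.71 (0.57 to 0.85) in the hot water bath library, and Pbx2, Pbx3, Pbx4, Pknox1 and Meis3 lay between -0.53 and 0.35 in both. Of 18 retinoic acid genes in the tables, 12 and 10 had 20 UMIs, of which 4 and 1 exceeded 1.5-fold and 3 and 2 lay below by that factor, with medians of 0.18 and -0.02. The shares of all genes with 20 UMIs were 7.06 and 8.25% higher and 7.67 and 10.3% lower. Cyp26b1, which degrades retinoic acid, stood at -3.35 (-6.78 to -1.58) and -2.28 (-5.68 to -0.63), from 2 UMIs in Hox-positive nuclei of each library, and the receptor Rarb at 0.94 (0.60 to 1.29) and -0.06 (-0.44 to 0.30). Of the 18 Polycomb and trithorax genes with 20 UMIs, none was at least 1.5-fold higher in either library, and 1 was lower in the SNI with brush library and none in the hot water bath library.

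Among 58 other regional transcription factors of the hindbrain in the tables, 44 in the SNI with brush library and 35 in the hot water bath library had 20 UMIs. Of these, 9 and 11 exceeded 1.5-fold in Hox-positive nuclei and 15 and 14 lay below by that factor (median -0.16 in both). Over all genes with 20 UMIs, 7.06 and 8.25% were higher and 7.67 and 10.3% lower by that factor. Pax2, a factor of inhibitory interneurons, stood at 0.60 (0.20 to 1.03) and 2.22 (1.46 to 3.02), and Nfib at 0.47 (0.28 to 0.66) and 1.99 (1.68 to 2.31). Lower in both libraries were Prdm6 at -2.01 (-3.25 to -1.0) and -4.44 (-6.21 to -3.34), Lhx9 at -2.23 (-3.62 to -1.13) and -3.44 (-6.82 to -1.85), and Gata3 at -1.65 (-2.31 to -1.06) and -2.0 (-4.08 to -0.72). Lmx1b, needed for serotonergic neurons, stood at -0.43 (-0.99 to 0.12) and -2.05 (-2.76 to -1.47). En1, a factor of the midbrain and rostral hindbrain, stood at -4.08 (-7.49 to -2.41) in the SNI with brush library, from 2 and 32 UMIs in Hox-positive and Hox-negative nuclei.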

How the data were processed

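The authors deposited gene by nucleus tables of raw UMI counts for 2 libraries, and the submitters' processing notes name Cell Ranger 5.0, Seurat and mm10. Whether intronic reads were counted, and the rule by which the authors kept 288 of 850 and 425 of 723 listed barcodes, are not given in the sources used here. Columns of other samples numbered 0. Called doublets (2 and 3, Scrublet through scanpy 1.11.5) and 18 nuclei with at least 20 UMIs of 7 liver genes, a minimum chosen after seeing the data, were removed. The highest nucleus below that minimum had 9 and the lowest above it 40.

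Clusters came from Leiden grouping (leidenalg 0.10.2) without Hox-cluster genes. Sums and ratios used Python 3.11.15, numpy 2.4.6, pandas 2.3.3 and scipy 1.17.1. Shares have exact Clopper-Pearson intervals, CPM exact Poisson intervals and log2 ratios exact conditional intervals with 0.5 UMI added. All have a 95% level and cover counting error only. A called gene is at least 1.5-fold apart with at least 20 UMIs, computed over the whole table. With 1 library per treatment there is no test and no p-value. The ratio steps were tested on simulated data.

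Genes named across the whole table were the 10 with the highest and the 10 with the lowest ratio in the library where it was nearer 0, among genes with at least 100 UMIs in each library, in at least 10 nuclei and with at most 25% of UMIs from 1 nucleus on the higher side, without Hox-cluster, Y-linked, mitochondrial, ribosomal protein and predicted genes. Of the peptide list, the 6 with the largest and the 6 with the smallest mean ratio were named, where an interval excluded 0 in at least 1 library. The members and lists were chosen with earlier results of these data known. Alternatives were thinning to 1000, 9000 or 20000 UMIs, other definitions of Hox-positive, other floors and added UMIs, size factors, equal weight per nucleus, and leaving out or adding groups of nuclei. Where Hox-positive was set after thinning, Hox-negative was set after it too. Some genes and 1 cluster are not reported here. Leaving out the Gcg cluster and ordering clusters within each library, from 10 nuclei up, were chosen after seeing the data. Promoter windows are from RefSeq, build GRCm38.p6.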

Additional observations from a re-analysis of the deposited data

Results flagged for a closer look

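For 6 genes the ratio of Hox-positive over Hox-negative nuclei lay on opposite sides of 0 in the 2 libraries, with both intervals clear of 0. The difference between the libraries was not tested. Adcyap1, which encodes the peptide PACAP, stood at -0.77 in the SNI with brush library (54 and 71 UMIs) and at 0.80 in hot water bath nuclei (163 and 290 UMIs). Vip stood at -6.69 in SNI with brush nuclei, a value that depends on the added 0.5 UMI since Hox-positive nuclei had 0 UMIs, and at 2.06 in hot water bath nuclei. Cartpt stood at 2.78 in SNI with brush nuclei, where 95% of its 379 UMIs in Hox-positive nuclei came from 1 nucleus, and at -3.07 in hot water bath nuclei, where Hox-positive nuclei held 3 UMIs and Hox-negative nuclei 90. Vgf, a granin-like secretory protein, stood at -1.19 in SNI with brush nuclei and at 0.40 in hot water bath nuclei. The Hox cofactor Pbx3 stood at 0.35 and -0.44 in SNI with brush and hot water bath nuclei. The transcription factor Ebf1 stood at 1.30 and -1.68.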

How the results depend on the processing

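No paired analysis was possible because each treatment has 1 library and no result comes from a test. Of the main results, 103 values under the alternatives stayed within the interval of the main value or, for counts, within 1.5-fold of it. Another 33 moved beyond that, and 2 reversed. Of the single genes, 656 stayed, 173 moved and 16 reversed. A reversal was counted only where the main ratio was at least 1.5-fold. Smaller ratios that changed sign are among the values that stayed or moved. The causes were not tested. Among nuclei with a Y-linked UMI the median library ratio was 0.92, 6 members exceeded 1.5-fold and the hot water bath share was 43.7%. In SNI with brush nuclei there, Slc17a6 stood at 0.31, Slc6a5 at -0.57 and Tph2 at 2.64, with 56.5% of Hox-positive nuclei glutamatergic and 34.8% inhibitory. Tph2 stood at -5.01 in such hot water bath nuclei, of which 36.4% were glutamatergic and 36.4% inhibitory. Crh (1.77), D5Ertd615e (0.68), Ddc (0.81), Dlk1 (0.0070), Slc18a2 (0.24) and Slc6a4 (2.73) also reversed in SNI with brush nuclei, and Slc17a8 (0.64) and Tac2 (-4.28) in hot water bath nuclei. Shares with a Hox UMI were 7.09 and 1.42% (SNI with brush, then hot water bath) at 1000 UMIs, 38.8 and 17.3% at 9000, 51.0 and 28.6% at 20000, and 41.0 and 19.2% with at least 2 UMIs. At 9000 UMIs, 69.2 and 40% of nuclei with groups 6 to 8 held group 4 or 5. With Hox-positive and Hox-negative both set after thinning, Slc17a6 stood at 0.20 in SNI with brush and -0.21 in hot water bath nuclei, and Tph2 at -0.77 in hot water bath nuclei. Fam163a (-0.32) and Pappa2 (0.045) in SNI with brush nuclei, and Gad1 (0.18), Nox4 (-0.10) and Vip (-3.59) in hot water bath nuclei, reversed. With Hox-positive at 1 UMI, Tph2 stood at -1.92 in SNI with brush and -1.13 in hot water bath nuclei, and with equal weight per nucleus at -2.82 in SNI with brush nuclei. At most 0.5% mitochondrial UMIs gave Slc6a5 0.45 in SNI with brush and -0.32 in hot water bath nuclei, and Chat 0.85 in SNI with brush nuclei. Without the Gcg cluster, hot water bath nuclei gave Slc17a6 0.35, Sulf1 -0.32, and 73.7% glutamatergic and 12.3% inhibitory Hox-positive nuclei. With transmitter UMIs of 1 kind, 20.9% of Hox-positive SNI with brush nuclei were glutamatergic and 35.5% inhibitory, and 11.1% of hot water bath nuclei inhibitory. Nox4 stood at -0.43 in SNI with brush nuclei with liver-gene nuclei included. There were 3 values not given, for want of UMIs: Hoxa7 and Vip (SNI with brush) at no more than 0.5% mitochondrial UMIs, and Gcg in SNI with brush nuclei without its cluster. Depth limits Hoxa7 and Hoxc5, which had 10 and 16 UMIs in SNI with brush nuclei and 7 and 6 in hot water bath nuclei.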
